A study of Mus musculus with 12 samples.

Results

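The genes described here code for the enzymes that conjugate drugs, bilirubin, steroids, bile acids and reactive lipid products in the liver with glutathione, glucuronic acid or sulfate. They are the protein-coding rows of the deposited count table whose symbols name such an enzyme. The glutathione transferases are those of the alpha, mu, pi, theta, omega and kappa classes (Gsta, Gstm, Gstp, Gstt, Gsto, Gstk). The others are UDP-glycosyltransferases (Ugt1a, Ugt2a, Ugt2b, Ugt3a) and cytosolic sulfotransferases (Sult). The symbols alone made the choice, with no measured value. Of 27105 rows, 18742 were protein-coding and 56 were members: 22 glutathione transferases, 16 glucuronosyltransferases and 18 sulfotransferases. A few genes of the same families with a letter after the number, such as Ugt1a6a and Ugt1a6b, are not members and were counted with the pathway genes below.

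Total RNA was sequenced from livers of mice fed a ketogenic diet (6 livers) and of mice fed a control diet (6 livers), and the series design calls the livers of a diet biological replicates. A ketogenic diet is poor in carbohydrate and rich in fat, and the liver makes ketone bodies under it. The sources used here do not give the recipes and length of the diets, or the strain, sex and age of the mice. The comparison asks how expression in the liver differs after the ketogenic diet. Libraries are named by diet and replicate number, and p-values cover the spread between these livers.

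Conjugation is the second phase of the handling of foreign and waste compounds. Glutathione transferases join glutathione to electrophiles, UGTs move glucuronic acid from UDP-glucuronate, and sulfotransferases move sulfate from the donor PAPS. The products are more soluble and leave the hepatocyte through ABC transporters into bile or blood. Many of these genes are known targets of NRF2, which binds the antioxidant response element, and of the xenobiotic receptors CAR, PXR and AHR, and many differ between male and female mice.

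Promoter sequences were looked up for all members in a RefSeq table of assembly GRCm38.p6, with 250 bases before and 50 after each gene's start. Of 56 members, 48 matched, with 58 promoters. Gstt2, which also passed the test below, and Gsta4 were among the members with no entry, so their promoters were not searched. The core of the antioxidant response element, TGACNNNGC on either strand, lay in 3 of the 58 (5.17%), against 12.4% of all 32851 promoters in the table. These were the promoters of Gsta3, Gstm5 and Gstm7, with the match starting 121, 42 and 129 bases before the start. The AHR core GCGTG on either strand lay in 13 of 58 (22.4%) against 32.4% of all promoters. The motifs do not overlap each other in the sequences shown. A match is a run of letters, not a bound site, and no match says only that these letters are not in this window. Shown are Gsta1 and Gstm3, which moved most between livers of 1 diet, Gsta3, an abundant gene of the same classes with the antioxidant core, and Sult1d1, which passed the test. Each reads 5′ to 3′ on the strand of its gene, and capitals mark a match to TGACNNNGC or GCGTG or its reverse complement. The windows are chr9:78230419-78230718 (plus strand) for Gsta1, chr1:21240335-21240634 (plus strand) for Gsta3, chr3:107969125-107969424 (minus strand) for Gstm3 and chr5:87568957-87569256 (minus strand) for Sult1d1.
Gsta1: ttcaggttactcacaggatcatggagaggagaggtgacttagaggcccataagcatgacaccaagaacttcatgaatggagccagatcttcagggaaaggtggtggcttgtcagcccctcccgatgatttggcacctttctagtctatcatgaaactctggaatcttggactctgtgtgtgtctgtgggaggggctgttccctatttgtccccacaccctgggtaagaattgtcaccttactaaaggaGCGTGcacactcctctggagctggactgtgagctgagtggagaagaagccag
Gsta3: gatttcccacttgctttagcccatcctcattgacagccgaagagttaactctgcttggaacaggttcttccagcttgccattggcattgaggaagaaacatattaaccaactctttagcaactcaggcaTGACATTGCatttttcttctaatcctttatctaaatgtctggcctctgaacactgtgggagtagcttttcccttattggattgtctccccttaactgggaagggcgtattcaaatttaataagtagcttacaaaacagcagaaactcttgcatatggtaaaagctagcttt
Gstm3: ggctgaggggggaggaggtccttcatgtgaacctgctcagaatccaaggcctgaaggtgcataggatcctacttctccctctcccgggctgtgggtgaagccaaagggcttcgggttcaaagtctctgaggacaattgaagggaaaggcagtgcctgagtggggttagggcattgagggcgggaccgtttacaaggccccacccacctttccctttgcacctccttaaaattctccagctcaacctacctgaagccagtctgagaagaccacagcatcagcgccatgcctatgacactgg
Sult1d1: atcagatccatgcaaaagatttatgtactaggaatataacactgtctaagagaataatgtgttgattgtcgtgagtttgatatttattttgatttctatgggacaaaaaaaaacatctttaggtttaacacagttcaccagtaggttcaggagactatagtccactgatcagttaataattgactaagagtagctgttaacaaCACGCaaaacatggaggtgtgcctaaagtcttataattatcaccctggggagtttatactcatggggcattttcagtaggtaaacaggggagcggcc
Gsta3 alone of these holds the antioxidant core, as TGACATTGC. The capitals in Gsta1 and Sult1d1 are the AHR core, in Sult1d1 on the opposite strand, and Gstm3 holds neither.

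The libraries held 30.2 to 33.5 M counts. Albumin ranged from 50558 to 73408 CPM (counts scaled to 1 M per library, on TMM-scaled library sizes) in ketogenic livers and from 57813 to 92626 CPM in control livers, the level of hepatocyte tissue. The Y-linked gene Ddx3y lay at 42.9 to 62.4 CPM in ketogenic and 47.5 to 87.2 CPM in control livers, and Xist, expressed from the inactive X of females, at no more than 0.0838 CPM in ketogenic and 0.154 CPM in control livers. Ketogenic 4 stood apart from its diet: its median correlation to the other ketogenic libraries was 0.951, against 0.972 to 0.984 in the rest of the libraries. Short transcripts were high in it (Spearman rho between deviation and length across 13972 genes -0.50, against -0.31 to 0.31 elsewhere). In bulk liver, fewer cells of a type and less RNA per cell cannot be told apart.

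Glutathione transferases took the most reads of the 3 families, 0.399% of the TMM-scaled library size in ketogenic and 0.483% in control livers. These percentages hold the TMM scaling and are not shares of raw counts. On the same scale the glucuronosyltransferases took 0.290% in ketogenic and 0.308% in control livers. The sulfotransferases took 0.0981% in ketogenic and 0.0776% in control livers. Per kilobase of exon, averaged over the 12 libraries, Gstm1 of the mu class stood highest at 1044 CPM per kb, followed by Gstp1 of the pi class at 605. Next came Ugt2b5 at 359, Ugt2b36 at 253.3 and the alpha-class gene Gsta3 at 252.9 CPM per kb. Sult2a8, known in mouse as a bile acid sulfotransferase, led its family at 177 CPM per kb, and Sult1a1, which acts on phenols, stood at 118. The spread between livers of 1 diet was wider than these steps for Gstm1, whose control values ran from 618 to 5581 CPM, and the order of Ugt2b36 and Gsta3 cannot be told. The glucuronosyltransferase order below Ugt2b5 and Ugt2b36 ran through Ugt2b1 (143) and Ugt3a2 (127 CPM per kb).

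The level of each family, summed over its genes, overlapped between diets. The glutathione transferases summed to 3987 ± 1738 CPM in ketogenic livers and 4834 ± 2367 CPM in control livers (mean ± SD, n = 6 per diet here and below). The log2 ratio of these means, -0.28, was -0.56 without ketogenic 4 and 0.03 without control 5, so that 1 liver turned its direction. The glucuronosyltransferases summed to 2901 ± 288 CPM in ketogenic and 3082 ± 461 CPM in control livers. In these families the difference of the means was smaller than the SD of either diet. The sulfotransferases summed to 981 ± 91.7 CPM in ketogenic and 776 ± 191 CPM in control livers, with ketogenic livers between 882 and 1134 CPM and control livers between 554 and 1040.

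**Figure D1:**
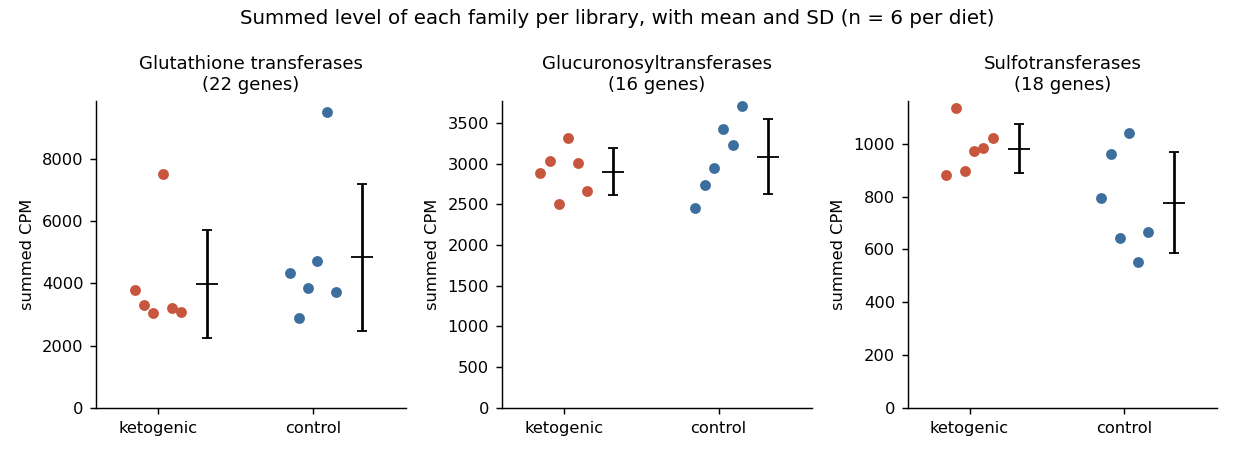
Summed CPM of all members of each family (vertical axes, linear, from 0) in 6 ketogenic and 6 control livers. Points are libraries, and bars give mean and SD. 1 library of each diet, ketogenic 4 at 7495 CPM and control 5 at 9495 CPM, lies far above the rest in the glutathione transferases.

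For most conjugation genes a difference between diets beyond the spread between livers was not found. Of the 56 members, 38 passed the filter on low counts and were tested with edgeR's quasi-likelihood test, adjusted by Benjamini-Hochberg over all 13995 genes tested. The theta-class gene Gstt2 was higher on the ketogenic diet, Sult1d1 was lower, and 36 did not pass an adjusted p of 0.05. These 2 calls are 5.26% of the tested members, against 3.78% of all genes tested (2.34% higher and 1.44% lower), a share near the background. At an unadjusted p under 0.05 stood 7 of 38 members (18.4%) and 16.7% of all genes. The diets did not overlap in 1 member, Gstt2, against 2.17% of all genes with the ketogenic diet higher, and in 0 members with the ketogenic diet lower, against 1.37% of all genes.

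By direction, 19 members lay above 0 and 19 below. The median log2 fold change, ketogenic over control, was 0.09 for the 19 tested glutathione transferases, -0.10 for the 13 glucuronosyltransferases and 0.31 for the 6 sulfotransferases, against -0.0010 for all genes. Members had wider spreads than the genes of the table at large. The log2 fold change was under 0.5 in size in 28 of 38 members (73.7%) and in 88.3% of all genes. The median coefficient of variation between livers of 1 diet was 30.2% in ketogenic and 28.8% in control livers, while over all genes it was 21.9% in ketogenic and 16.9% in control livers.

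**Figure D2:**
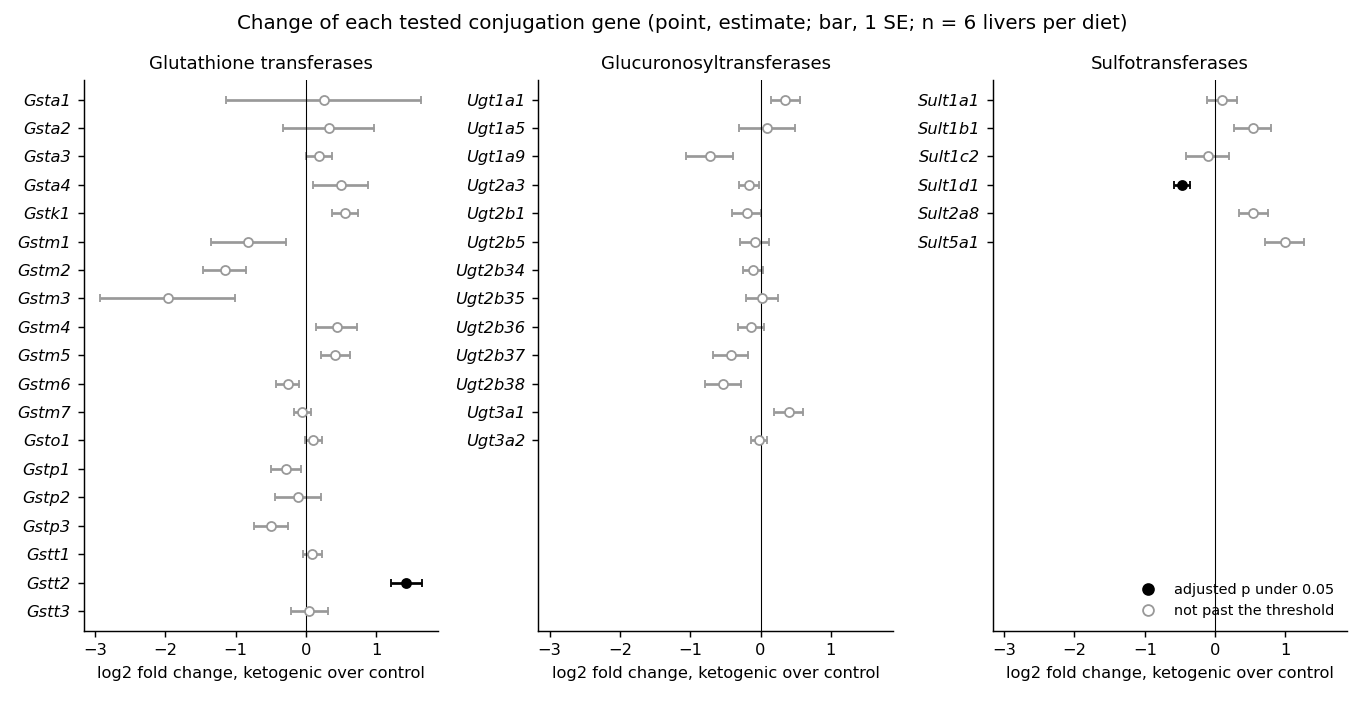
Log2 fold change of each of the 38 tested members (horizontal axis, ketogenic over control) with bars of 1 SE, by family. Filled points passed an adjusted p of 0.05, which holds for Gstt2 at 1.43 and Sult1d1 at -0.47. Gsta1 and Gstm3 carry the widest bars.

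Gstt2, a theta-class glutathione transferase known to act on organic hydroperoxides, rose (ENSMUSG00000033318, minus strand of chromosome 10, 75666948 to 75673258 as the deposited table gives it, in a build that the sources used here do not name). It had 60.2 CPM in the lowest ketogenic liver, a median of 68.0 and 108 CPM in the highest, against 15.5, 28.5 and 41.1 CPM in control livers. Every ketogenic liver lay above every control liver. The means were 78.8 ± 21.3 CPM in ketogenic and 29.3 ± 9.26 CPM in control livers, a log2 fold change of 1.43 ± 0.22 (SE) with an adjusted p of 0.00257. It passed under each alternative run, with an adjusted p between 1.52e-07 and 0.00987, and shares no 100-base stretch with another transcript.

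The other theta genes did not pass. Gstt1, the highest of them per kilobase, was at 238 ± 35.3 CPM in ketogenic and 224 ± 40.8 CPM in control livers (log2 0.09 ± 0.14), and Gstt3 at a log2 of 0.05. Gstt4 reached no more than 2 reads in a library. The genes whose diet-centred log2 CPM was most like that of Gstt2 over the 12 libraries were Clec2i (Pearson r = 0.88), Dhrs7 (0.87) and Gmfb (0.87), given as a description with no test.

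Sult1d1, known in mouse as a sulfotransferase of catecholamines, fell (ENSMUSG00000029273, minus strand of chromosome 5, 87702504 to 87716886 as the table gives it). It had 66.4 CPM in the lowest ketogenic liver, a median of 75.8 and 94.6 CPM in the highest, against 85.4, 109.9 and 125 CPM in control livers. The diets overlapped through control 3, the lowest control liver, while all 6 ketogenic livers lay below the control mean. The means were 78.6 ± 10.8 CPM in ketogenic and 109 ± 14.2 CPM in control livers, a log2 fold change of -0.47 ± 0.12 with an adjusted p of 0.0390. The call was lost in 8 of the 12 fits that left out 1 library (adjusted p 0.0289 to 0.0981), with library size as the only scale (0.107) and with no filter on low counts (0.0716). Most like Sult1d1 in the same sense were Pde1c (r = 0.91), Gamt (0.88) and Zfp362 (0.85).

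Gstm2, of the mu class, and Sult5a1 came next by p and did not pass. Gstm2 had 14.7, 16.7 and 38.0 CPM as lowest, median and highest ketogenic values, against 24.8, 40.7 and 81.2 CPM in control livers. The 6 ketogenic livers were all below the control mean, and ketogenic 4 alone reached into the control values (log2 -1.15 ± 0.30, adjusted p = 0.0514). With 1 library left out it passed in 2 of 12 fits (adjusted p 0.0169 without ketogenic 4 to 0.109). The adjusted p was 0.00361 with DESeq2, 0.0459 with limma-voom, 0.0479 with the filter at 1 CPM in 6 libraries, 0.0611 with library size as the only scale and 0.159 with no filter. Of all genes, 5.39% passed without ketogenic 4, 7.35% with DESeq2 and 3.61% with limma-voom.
Sult5a1 had 4.97, 6.40 and 9.42 CPM in ketogenic livers as lowest, median and highest values, against 1.26, 3.59 and 5.24 CPM in control livers. All ketogenic livers lay above the control mean and 1 lay under the highest control liver (log2 0.99 ± 0.28, adjusted p = 0.0701). With 1 library left out it passed in 1 of 12 fits (adjusted p 0.0412 without control 4 to 0.158). The adjusted p was 0.0132 with DESeq2, 0.0466 with limma-voom, 0.0349 with library size as the only scale, 0.0682 with the filter at 1 CPM and 0.0795 with no filter.

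**Figure D3:**
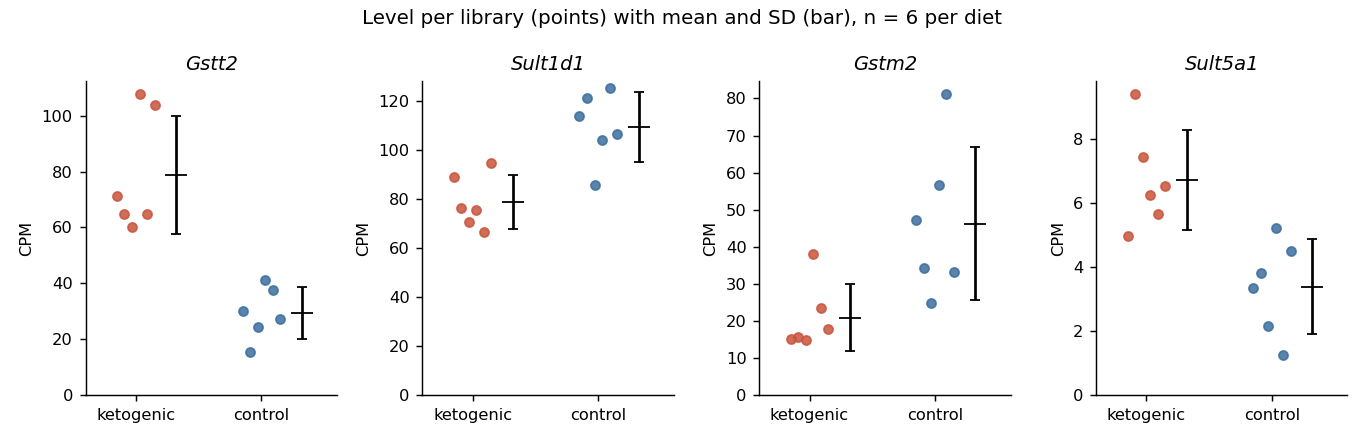
CPM (vertical axes, linear, from 0) of the 4 members with the smallest p in 6 ketogenic and 6 control livers. Points are libraries, and bars give mean and SD. The diets do not overlap in Gstt2 and overlap in Sult1d1, Gstm2 and Sult5a1.

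The alpha and mu classes hold the known NRF2-inducible glutathione transferases. Several of their genes varied widely between livers of 1 diet, with a median coefficient of variation of 83.2% in ketogenic and 85.9% in control livers for the tested alpha genes. In the mu class the coefficient ran from 14.1% (Gstm7) to 136% (Gstm3) in ketogenic livers and from 14.9% (Gstm7) to 163% (Gstm3) in control livers. Gsta1 and Gsta2, known as inducible alpha-class genes, are named here with Gstm3 and Gstm4 after their values were seen. Gsta1 shares 81.8% and Gsta2 35.0% of its 100-base stretches with other transcripts, so their counts are uncertain to that extent. Gsta1 lay between 0.205 and 2.15 CPM in 5 ketogenic livers and at 29.2 CPM in ketogenic 4, against 0.0611 to 2.05 CPM in 5 control livers and 24.9 CPM in control 5. In Gsta1 the highest ketogenic liver was 13.6-fold and the highest control liver 12.1-fold above the second of its diet. The same livers were highest for Gsta2 (47.1 CPM in ketogenic 4, 39.9 in control 5) and Gsta4 (137 CPM in ketogenic 4, 92.1 in control 5). They were highest as well for Gstm1 (2762 CPM in ketogenic 4, 5581 in control 5), Gstm3 (86.3 CPM in ketogenic 4, 386 in control 5) and Gstm4 (133 CPM in ketogenic 4, 119.6 in control 5).

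Gsta4, known for conjugating the lipid peroxidation product 4-hydroxynonenal, had a median of 45.7 CPM in ketogenic and 34.1 CPM in control livers (log2 0.50 ± 0.39, adjusted p = 0.608). Gsta3, the abundant alpha-class gene known in mouse for detoxifying aflatoxin, had medians of 1028 CPM in ketogenic and 992 CPM in control livers (0.19 ± 0.19, adjusted p = 0.717). Gstm1 had medians of 774 CPM in ketogenic and 1380.1 CPM in control livers (-0.82 ± 0.53, adjusted p = 0.507). None of these passed, and all overlapped between diets. The values that rest on this pair of livers moved when 1 was left out. Gsta1 was at 0.25 ± 1.39 with all livers, at -2.11 without ketogenic 4 and at 2.82 without control 5. Gsta4 was at 0.05 without ketogenic 4 and at 0.90 without control 5, and Gstm1 at -1.32 without ketogenic 4 and at -0.15 without control 5. Gstm3 was at -1.97 ± 0.96 with all livers, at -3.13 without ketogenic 4 and at -0.39 without control 5, and none of these 4 genes passed in any of these fits.

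Leaving out both ketogenic 4 and control 5 was a choice made after the data were seen. These livers stood out by high values of alpha and mu genes, so leaving the livers out narrows the spread of those genes. Their adjusted p in this fit is therefore not an independent test. With all livers it was 0.346 for Gstm3 and 0.523 for Gstm4. With both livers left out, 5 of 38 tested members passed, against 4.53% of all genes. Gstm2 (-1.18, adjusted p = 0.0105), Gstm3 (-1.55, 0.0258) and the pi-class gene Gstp3 (-0.76, 0.0112) were lower, and Gstm4 (0.56, 0.0467) and Gstt2 (1.40, 0.00851) were higher. Sult1d1 did not pass in that fit (-0.42, adjusted p = 0.0729). In ketogenic 4, 21 of 38 members were at their highest for the diet (55.3%, against 33.1% of all genes tested). In control 5 this held for 17 of 38 (44.7%, against 12.4% of all genes). Nqo1, a known NRF2 target outside the families, was also highest in these livers, at 8.92 CPM in ketogenic 4 and 9.44 CPM in control 5. It was named after its values were seen, and the values of other NRF2 targets in these livers are not given here. The rho between deviation and length was -0.50 in ketogenic 4 and 0.09 in control 5. Of the 12 libraries, control 5 had the most genes with reads (21938) and ketogenic 4 the fewest (18306). The parts that NRF2 and library quality have in the high values of these livers were not tested.

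**Figure D4:**
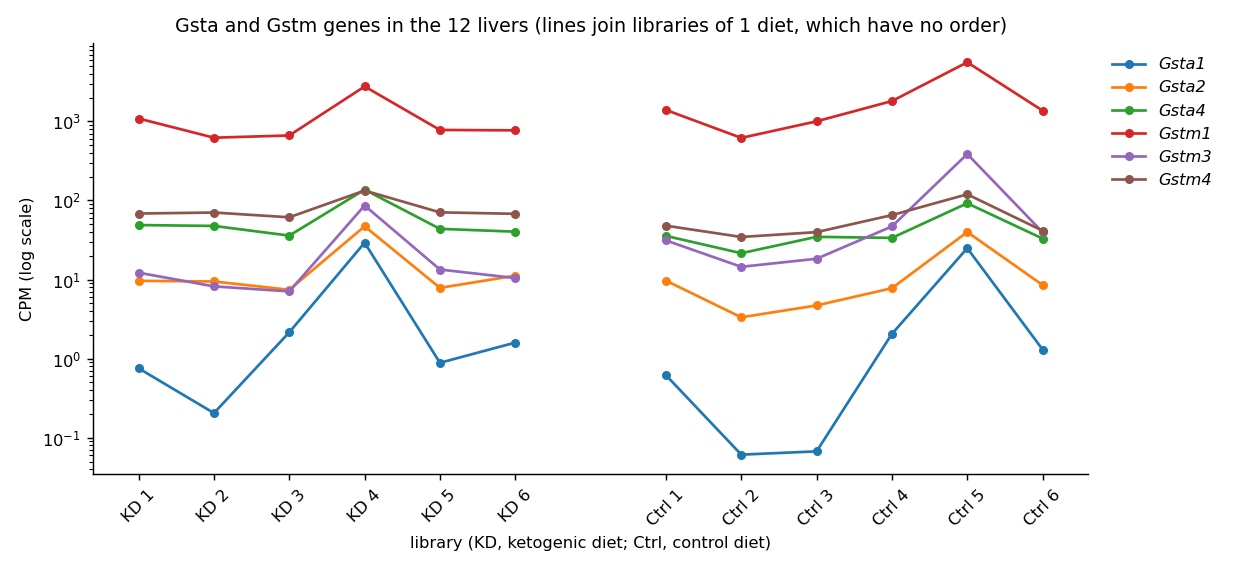
CPM on a log axis of 6 alpha- and mu-class genes in the 6 ketogenic (KD) and 6 control (Ctrl) livers, with lines joining libraries of 1 diet, which have no order. All 6 genes peak in ketogenic 4 and in control 5, by 1.89-fold (Gstm4) to 13.6-fold (Gsta1) over the second ketogenic liver.

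The ratio of members of 1 gene cluster was also taken within each library, where a difference between livers that both genes share drops out. These pairs were picked with their values in view and are given with no test. Gstm2 and Gstm4 lie in the mu-class cluster of chromosome 3, and their ratio of reads within a library was 0.222 to 0.332 in ketogenic livers and 0.623 to 0.995 in control livers. No ketogenic liver reached the lowest control liver, ketogenic 4 (0.285) and control 5 (0.679) included. Gstm4 itself had a median of 69.3 CPM in ketogenic and 44.7 CPM in control livers (log2 0.44 ± 0.29, edgeR adjusted p = 0.523). The difference in this ratio therefore holds that of Gstm4 as well as that of Gstm2. Gstt2 and Gstt1, in the theta cluster of chromosome 10, had a ratio of 0.258 to 0.477 in ketogenic and 0.0748 to 0.168 in control livers. Sult1d1 and Sult1b1 on chromosome 5 overlapped, at 2.99 to 8.47 in ketogenic and 5.84 to 16.3 in control livers. Of all 703 pairs of tested members, 7.54% had ratios that did not overlap between diets, 53 pairs in all, and 35 of them held Gstm2 or Gstt2. By cluster this was 3 of 21 Gstm pairs, all with Gstm2, 1 of 3 Gstt pairs and 0 of 21 Ugt2b pairs.

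**Figure D5:**
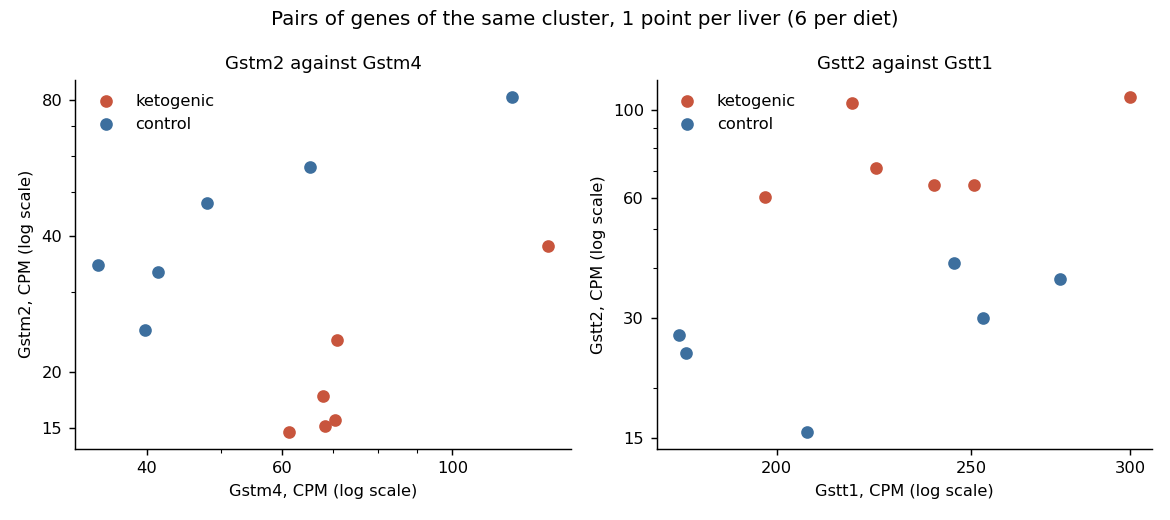
CPM of Gstm2 against Gstm4 and of Gstt2 against Gstt1 (log axes), 1 point for each of 6 ketogenic and 6 control livers. Every ketogenic liver has a lower ratio of Gstm2 to Gstm4, and a higher ratio of Gstt2 to Gstt1, than every control liver. The median of Gstm4 is 69.3 CPM in ketogenic and 44.7 CPM in control livers.

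The remaining glutathione transferases did not pass. Gstk1, the kappa-class enzyme of mitochondria and peroxisomes, was at 115 ± 34.2 CPM in ketogenic and 78.3 ± 14.8 CPM in control livers (0.56 ± 0.19, adjusted p = 0.131). Gstp1, the abundant pi-class gene, was at 844 ± 323 CPM in ketogenic and 1029 ± 185 CPM in control livers (-0.29 ± 0.21, adjusted p = 0.576). Gsto1 is of the omega class, known for reducing disulfides and dehydroascorbate. It was at 84.1 ± 14.8 CPM in ketogenic and 78.2 ± 8.84 CPM in control livers (0.11 ± 0.12). Gstp3 was at 11.4 ± 5.67 CPM in ketogenic and 16.1 ± 2.42 CPM in control livers (-0.50 ± 0.24, adjusted p = 0.318). Without ketogenic 4, which had 22.5 CPM, the highest value of all 12 livers, its adjusted p was 0.00488. Gstm5, Gstm6, Gstm7, Gstp2 and Gsta2 were at log2 values of 0.42, -0.26, -0.05, -0.11 and 0.32, and none passed. Gstp1 shares 52.8% and Gstp2 63.5% of its 100-base stretches with other transcripts, and Gsto1 overlaps Cfap43 on the opposite strand.

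Of the 13 tested glucuronosyltransferases, 0 passed with edgeR, and the count was 0 under each alternative run, DESeq2 and limma-voom included. At an unadjusted p under 0.05 stood 1, Ugt1a9, which acts on phenols. It had 14.0, 20.9 and 39.6 CPM as lowest, median and highest values in ketogenic livers, against 18.6, 29.9 and 76.7 CPM in control livers (-0.73 ± 0.33, adjusted p = 0.284). The diets overlapped, and control 5 held the highest value. Ugt1a1, the bilirubin UGT, was at 109 ± 28.5 CPM in ketogenic and 85.7 ± 23.6 CPM in control livers (0.35 ± 0.20), and Ugt1a5 at a log2 of 0.10. Genes of the Ugt1a locus share their last exons, with 57.2% to 63.1% of 100-base stretches in common with other transcripts for each member, so their split depends on how reads were assigned.

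The Ugt2b genes, known for steroid substrates, took most reads of their family. Ugt2b5 was at 648 ± 215 CPM in ketogenic and 687 ± 170 CPM in control livers (-0.08 ± 0.21), and Ugt2b36 at 496 ± 144 CPM in ketogenic and 547 ± 117 CPM in control livers (-0.14 ± 0.19). Ugt2b34 was at 419.8 ± 59.0 CPM in ketogenic and 450.1 ± 84.4 CPM in control livers (-0.10 ± 0.14). Ugt2b5 shares 24.7% and Ugt2b38 24.2% of its 100-base stretches with other transcripts. Of the 7 Ugt2b genes, 6 had a negative log2 fold change, the lowest Ugt2b38 at -0.54 ± 0.26 (adjusted p = 0.315). Ugt2b1, Ugt2b35 and Ugt2b37 were at -0.20, 0.02 and -0.42. Ugt2b35 had nearly the same mean in both diets, with a coefficient of variation of 11.2% in ketogenic and 43.7% in control livers. Ugt2a3 was at 169 ± 23.4 CPM in ketogenic and 189 ± 40.8 CPM in control livers (-0.16 ± 0.14). Ugt3a1, of a family known in human to use sugars other than glucuronic acid, was at 74.3 ± 19.4 CPM in ketogenic and 56.4 ± 15.3 CPM in control livers (0.40 ± 0.21, adjusted p = 0.365), and Ugt3a2 at a log2 of -0.03.

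Among the sulfotransferases, Sult2a8 had the most reads. It had 629, 672 and 837 CPM as lowest, median and highest values in ketogenic livers, against 245, 442 and 707 CPM in control livers. The ketogenic livers all lay above the control mean of 474 ± 169 CPM, yet overlapped with control livers 2 and 4 (log2 0.54 ± 0.21, adjusted p = 0.184). The coefficient of variation was 11.1% in ketogenic and 35.6% in control livers. Sult1a1 was at 184 ± 43.6 CPM in ketogenic and 173 ± 50.6 CPM in control livers (0.09 ± 0.22), and overlaps Sgf29 on the opposite strand. Sult1b1, known for thyroid hormones, was at 17.5 ± 4.97 CPM in ketogenic and 12.1 ± 4.91 CPM in control livers (0.54 ± 0.26, adjusted p = 0.329), opposite in sign to Sult1d1 of the same cluster. Sult1c2 was at 3.31 ± 1.84 CPM in ketogenic and 3.57 ± 0.727 CPM in control livers (-0.11 ± 0.31).

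The 18 members that were not tested had too few reads, and 12 of them were sulfotransferases. Sult2a1, Sult2a2, Sult2a3, Sult2a6, Sult3a2, Sult1c1, Sult1e1, Gstt4 and Ugt1a8 reached no more than 5 reads in any library. Among them are Sult1e1, the estrogen sulfotransferase, with 10 reads over all ketogenic and 12 over all control livers, and Sult2a1, known for acting on DHEA. Sult2b1, Sult4a1, Sult6b1, Ugt1a2 and Ugt1a10 reached 6 to 14 reads. Gsta5 reached 21 reads in a library, and Gsto2 had 76 reads over the ketogenic and 25 over the control livers. Sult3a1 had 25 reads in 4 of the 6 ketogenic livers and 0 in the control livers, where a count of 0 allows up to 3 reads, or 0.0161 CPM over the diet. Sult2a7 had 27 reads over the ketogenic and 87 over the control livers. It passed the filter on low counts in 7 of the fits with 1 library left out, and was lower without ketogenic 4 and without control 4 and not called in 5 (adjusted p up to 0.122).

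Genes around conjugation were counted in 8 lists, chosen with earlier results of these data known. Of 112 genes tested, 6 were higher, 0 lower and 106 did not pass, with a median log2 fold change of 0.05. Of all genes tested, 2.34% were higher and 1.44% lower. DESeq2 called 10 higher and 8 lower (7.35% of all genes in either direction), and limma-voom 6 higher and 0 lower (3.61% of all genes). At an unadjusted p under 0.05, 20 were higher and 12 lower (16.7% of all genes in either direction). The supply of glutathione (14 genes tested), of UDP-glucuronate with 3 further Ugt1a genes (11) and of sulfate (12) held 0 calls. The genes nearest to the threshold were Glrx, a glutaredoxin (0.52, adjusted p = 0.0801), Ugp2, which makes UDP-glucose (-0.50, 0.0894), and Tpst2, a protein tyrosine sulfotransferase (-0.50, 0.0569). Other glutathione-handling enzymes (9 tested), other conjugating enzymes (19) and transcription regulators (18) held 0 calls too. Over these 6 lists of 83 genes, DESeq2 called 8 and limma-voom 0, and 19 had an unadjusted p under 0.05. Nearest there were the prostaglandin synthase gene Ptges (-1.25, adjusted p = 0.0737), the glycine methyltransferase gene Gnmt (-0.54, 0.0514) and Bach1, a repressor at antioxidant elements (0.54, 0.244). The regulator genes Nfe2l2, which codes for NRF2, and Nr1i2, which codes for PXR, were at -0.0027 and -0.08.

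Of 15 transporters of the export list, 3 rose and 0 fell with edgeR, with DESeq2 and with limma-voom, and 4 were higher and 2 lower at an unadjusted p under 0.05. The share of all genes called higher with edgeR was 2.34%, and that called in either direction 7.35% with DESeq2 and 3.61% with limma-voom. An unadjusted p under 0.05 in either direction was held by 16.7% of all genes. Abcc3, which exports glucuronides to blood, ran from 235 to 393 CPM in ketogenic livers and from 70.6 to 249 CPM in control livers (1.16 ± 0.25, adjusted p = 0.0194). Abcg2, known for the export of sulfate conjugates and urate, ran from 117 to 146 CPM in ketogenic livers and from 69.5 to 111 CPM in control livers without overlap (0.61 ± 0.12, adjusted p = 0.0108). Of 14 marker targets of the receptors, 3 rose and 0 fell with edgeR, and 5 were higher and 2 lower with DESeq2. At an unadjusted p under 0.05, 5 were higher and 2 lower, against 16.7% of all genes in either direction. The log2 fold changes of this list ran from -1.35 to 6.85. The first of the 3 risers was Cyp2b10, a CAR target, with 4.03 to 16.4 CPM in ketogenic and 0 to 0.180 CPM in control livers. The others were Cyp1a2, an AHR target (0.67, adjusted p = 0.0262), and Aldh1a1 (0.62, 0.0422). The NRF2 targets Nqo1, Hmox1, Txnrd1 and Srxn1 were at 0.20, -0.0075, -0.16 and 0.43, and none passed. Aldh1a1 and these regulators and NRF2 targets were named after their values were seen.

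Some markers of liver zones passed the test as well. Of 8 pericentral markers, 2 were higher (against 2.34% of all genes), Cyp2e1 (0.74) and Cyp1a2, and the list summed to 9927 to 13283 CPM in ketogenic and 5338 to 8656 CPM in control livers. Of 8 periportal markers, 4 were lower (Hal, Cyp2f2, Gls2 and Sds, against 1.44% of all genes). At an unadjusted p under 0.05, 7 were lower and 0 higher (against 16.7% of all genes in either direction). The log2 fold changes ran from -0.76 to 0.68, so not every marker fell. The list's sum did not fall, with 3505 to 7078 CPM (mean 5125) in ketogenic and 4383 to 6989 CPM (mean 5102) in control livers. Lists of Kupffer cells (6 genes), lymphocytes and neutrophils (7), endothelium (6), stellate cells (6), bile duct (5) and red cells (5) held 0 calls with edgeR, DESeq2 or limma-voom, and 5 of their 35 genes had an unadjusted p under 0.05. Of the male-biased liver genes 1 of 9 tested was higher (against 2.34% of all genes), Cyp4a12a (0.91, adjusted p = 0.0247). The median log2 fold change of that list was -0.12 and its lowest -0.68. It summed to 4991 ± 2420 CPM in ketogenic and 6484 ± 1541 CPM in control livers. Of the female-biased genes 1 of 5 was higher, Cyp2b9 (6.44, 0.0262), with a list median of 0.15 and a lowest value of -0.86. The part of zones and of sex-biased expression in the values of Gstt2, Sult1d1 and Abcc3 was not tested.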

How the data were processed

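Total RNA was taken from liver with a column kit (RNeasy), and a NEBNext Ultra kit made libraries of 1 μg of it, per the labels' protocols. What the authors deposited is a table of raw counts, whole numbers of reads per gene and library with no normalization. The submitters' processing notes name Cufflinks, StringTie 1.3.4d, HISAT2 2.1.0 and fastp 0.19.3 with no role. The sources used here do not give the counting program, strand setting, annotation or genome build, so reads of overlapping genes cannot be told apart by strand.

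Library totals were 30.2 to 33.5 M counts over 27105 genes. In a chi-square test over genes with at least 50 counts, no pair of libraries looked like a duplicate (chi-square over degrees of freedom at least 40.8). The test was that of edgeR 4.0.16 (R 4.3.3): filterByExpr by diet, TMM factors, robust glmQLFit and glmQLFTest with diet as the only term, over 13995 genes, with calls where p after Benjamini-Hochberg adjustment was under 0.05. SE values are the log2 fold change's size over the square root of F. CPM used TMM-scaled library sizes. The median biological coefficient of variation was 0.213. On simulated counts for 13854 genes with 200 changed, 72 of 100 with a log2 change of 1 and 95 of 100 with a change of 2 were called, and 8 of 175 calls were false. The changed genes were drawn from expressed genes at large, and no outlying liver was simulated. Since the members vary more between livers than genes at large, these shares do not give the test's reach for them.

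Exon lengths and shared 100-base stretches came from GENCODE M21 by gene ID (56 of 56 members). Its coordinates differ from those of the table, which are printed as deposited. Intervals and floors cover counting error only, since amplification copies are counted.

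The members and gene lists were chosen with earlier results of these data known. Members named with values are those called, the 3 with the highest mean CPM of each family and the smallest p of each subfamily (22 in all). From each pathway list up to 2 called genes or the 1 nearest to the threshold were named, and 1 called gene is not reported here by name. For the 2 members with the smallest p, the 3 genes with the most similar diet-centred log2 CPM (prior count 2) were added. Alternatives were RLE factors, library size only, no filter, at least 1 CPM in 6 libraries, DESeq2 1.42.0, limma-voom (limma 3.58.1), the replicate number as a block and each library left out. Leaving out ketogenic 4 and control 5 together was added after the data were seen.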

Additional observations from a re-analysis of the deposited data

Results flagged for a closer look

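A library was marked where it lay far from the other 5 of its diet (by Dixon's ratio of its gap to the next library over the diet's whole range). For the 22 genes named by rule, this was checked in 44 sets of 6 libraries and marked 15, of which 7 were ketogenic 4 and 3 were control 5. Chance marks about 1 in 20 independent sets, and these sets share their libraries. A further 8 marks are of Gsta1, Gsta2, Gstm3 and Gstm4, which were named because of their high values in ketogenic 4 and control 5, so these marks were fixed by that choice. The family sums repeat the same genes.

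For 6 of the 8 alpha and mu genes checked, 4 of them those named after their values were seen, ketogenic 4 and control 5 were both marked. The exceptions were Gsta3, marked in ketogenic 4 alone, and Gstm2, marked in neither diet. Ketogenic 4 held 29.2 CPM of Gsta1, 47.1 of Gsta2, 137 of Gsta4, 2762 of Gstm1, 86.3 of Gstm3 and 133 of Gstm4. Control 5 held 24.9 CPM of Gsta1, 39.9 of Gsta2, 92.1 of Gsta4, 5581 of Gstm1, 386 of Gstm3 and 119.6 of Gstm4. The summed glutathione transferases stood at 7495 CPM in ketogenic 4, with the other ketogenic livers at 3052 to 3770 CPM, and at 9495 CPM in control 5, with the other control livers at 2878 to 4728 CPM.

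Ketogenic 4 was marked alone, as the highest ketogenic liver, for Gsta3 (1947 CPM), Gstp1 (1440.0 CPM), Gstp3 (22.5 CPM), Ugt2b36 (779.9 CPM) and Ugt2b5 (1074 CPM). Ugt1a9 was marked in ketogenic 6 (39.6 CPM) and in control 5 (76.7 CPM), both high. Ketogenic 2 was high for Sult2a8 (837 CPM) and Ugt2a3 (214.5 CPM). Control 6 was low for Gstk1 (50.7 CPM) and high for Ugt2b38 (65.8 CPM).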

How the results depend on the processing

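Gstt2 passed under each of the 20 alternatives. The number of members higher (1) was 2 with library size only, DESeq2, limma-voom and both livers left out, and 1 to 2 with 1 library left out. The number lower (1) was 0 with library size only and with no filter, 2 with the 1 CPM filter, DESeq2 and limma-voom, 3 with both livers left out, and 0 to 4 with 1 library left out. Glutathione transferases called (1) were 2 with the 1 CPM filter, the replicate block, DESeq2 and limma-voom, 5 with both left out, and 1 to 3 with 1 left out. Sulfotransferases called (1) were 0 with no filter, the replicate block and both left out, 2 with DESeq2 and limma-voom, and 0 to 2 with 1 left out. Pathway genes called (6) were 3 with the replicate block, 18 with DESeq2, 10 with both left out, and 3 to 13 with 1 left out. The cause of these changes was not tested.

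Among the members named with values, the log2 fold changes that changed sign with 1 library left out were Gsta3 (-0.0191 to 0.30), Sult1a1 (-0.0406 to 0.20, and -0.0021 with both left out), Sult1c2 (-0.38 to 0.0409), Ugt2b5 (-0.29 to 0.0222), Gsta1 (-2.11 to 2.82) and Gsta2 (-0.44 to 1.18). Of the other tested members, Gstm7 (-0.11 to 0.02), Gstp2 (-0.42 to 0.08), Gstt3 (-0.09 to 0.17), Ugt1a5 (-0.09 to 0.36), Ugt2b35 (-0.10 to 0.25) and Ugt3a2 (-0.07 to 0.05) changed sign over the alternatives. Family medians with 1 left out ran from -0.07 to 0.17, -0.16 to -0.04 and 0.20 to 0.41.

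Over all genes, 529 calls became 1028 with DESeq2, 268 with the replicate block and 319 to 761 with 1 library left out. No clear pairing of the livers by replicate number was seen, though 6 pairs cannot exclude one. Deviations of same-numbered livers correlated at -0.29 to 0.34, over 0.1 in 3 of 6 pairs, and 2 of 6 correlated best with their own number. With the block, Gstm2 passed (adjusted p = 0.0146) and Sult1d1 did not (0.113). The 18 members that were not tested had too few reads for the filter, and 0 of them passed in the fit with no filter.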
